A study of Mus musculus with 6 samples.

Results

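The genes of MHC class I and peptide loading were followed in natural killer (NK) cells of mouse spleen sorted for different Ly49 receptors. They are the class I heavy chain genes H2-K1, H2-D1 and H2-T23, the light chain gene B2m, the peptide loading genes Tap1, Tap2, Tapbp, Erap1 and Calr, and Nlrc5, which encodes a transcriptional activator of class I genes. The genes were taken by name, and all 10 of the 10 named were among the 8520 genes of the deposited table. RNA was sequenced from 3 libraries of Ly49G+ cells, sorted as CD3-negative, NK1.1-positive, Ly49G-positive and Ly49C/I-negative, and from 3 libraries of Ly49I+ cells, sorted as CD3-negative, NK1.1-positive, Ly49C/I-positive and Ly49G-negative. Both came from spleens of 20 untreated C57BL/6Ncr mice aged 6 to 8 weeks. Whether the replicates came from separate animals or from a shared pool is not told by the labels, so the p-values cover only variation among the libraries, part of which may be technical. A single antibody marked Ly49C and Ly49I together, and the sort did not set the other Ly49 receptors of the cells.

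A class I molecule is a heavy chain held with beta-2 microglobulin around a short peptide. Peptides reach the endoplasmic reticulum through the TAP transporter, are trimmed there by ERAP1, and are loaded in a complex that includes tapasin and calreticulin. NK cells carry class I on their own surface and also read it on other cells: in C57BL/6 mice Ly49C and Ly49I bind the H2-K molecule, Ly49G is best known for binding H2-D of other haplotypes, and the CD94/NKG2A receptor binds Qa-1, the product of H2-T23.

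Library totals ran from 33599679 to 40892154 reads, and the members had between 2229 and 331830 reads per library, so counting error was small beside the spread between libraries. The sorted receptors followed the labels, with log2 differences of Ly49G+ minus Ly49I+ of 6.44 for Klra7 (Ly49G) and -3.77 for Klra9 (Ly49I). All 9 of 9 NK cell markers were measured, and their summed level ran from 13623 to 13786 CPM (counts per 1000000 reads of the library) in Ly49G+ and from 13891 to 14527 CPM in Ly49I+ libraries. Of the 9, 3 passed the test, where 3.59% of all genes did. Eomes was higher in Ly49G+ (0.39, limma adjusted p = 0.00893), and Tbx21 and Prf1 were lower (-0.42 and -0.49, adjusted p = 0.0441 and 0.0253). Ly49I+ replicate 3 stood apart in a way that touches the members. Relative to the mean of the 6 libraries, its values varied most with the GC content of the transcript. Several results are given with and without Ly49I+ replicate 3. Levels in a sorted population are averages over its cells, so fewer cells of a type and less RNA per cell cannot be told apart.

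No class I or peptide loading gene passed the test between the populations. Of the 10 genes 0 had a limma adjusted p under 0.05, where 3.59% of all genes did, 1.82% with more RNA in Ly49G+ and 1.77% with more in Ly49I+ cells. At an unadjusted p of 0.05 there were 2, B2m and Erap1, both higher in Ly49G+, where 19.8% of all genes passed in either direction and 9.59% toward Ly49G+. With the replicate number as a block the same 2 genes passed after adjustment, where 11.7% of all genes passed, 5.69% toward Ly49G+. The median log2 difference of Ly49G+ minus Ly49I+ was -0.05 over the 10 genes, but 0.06 without Ly49I+ replicate 3. Over all genes these medians were -0.02 and -0.01. The 95% intervals of all 10 differences lay between -0.65 and 0.65 on the log2 scale, and 7 of the 10 differences were smaller than 0.2 in size, as were 6003 of all 8520. In 3 of the 10, B2m, Erap1 and Nlrc5, every Ly49G+ library was above every Ly49I+ library, as in 12.5% of all genes. The reverse was seen in 0 of the 10, and in 13.4% of all genes, so that 25.8% of all genes did not overlap in either direction.

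The count of 0 also held in most alternatives. It was 0 of the 10 without Ly49G+ replicate 1, 2 or 3, where 1.82%, 1.1% and 1.97% of all genes passed, and without Ly49I+ replicate 1 or 3, where 7.56% and 3.44% passed. It was 0 without the intensity trend (2.77% of all genes), with a robust prior (3.85%), with libraries centred on their median (3.99%), with voom weights (3.43%) and among genes with a mean of at least 5 log2 CPM (3.32%). Without Ly49I+ replicate 2 it was 1, B2m, where 2.43% of all genes passed.

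**Figure D1:**
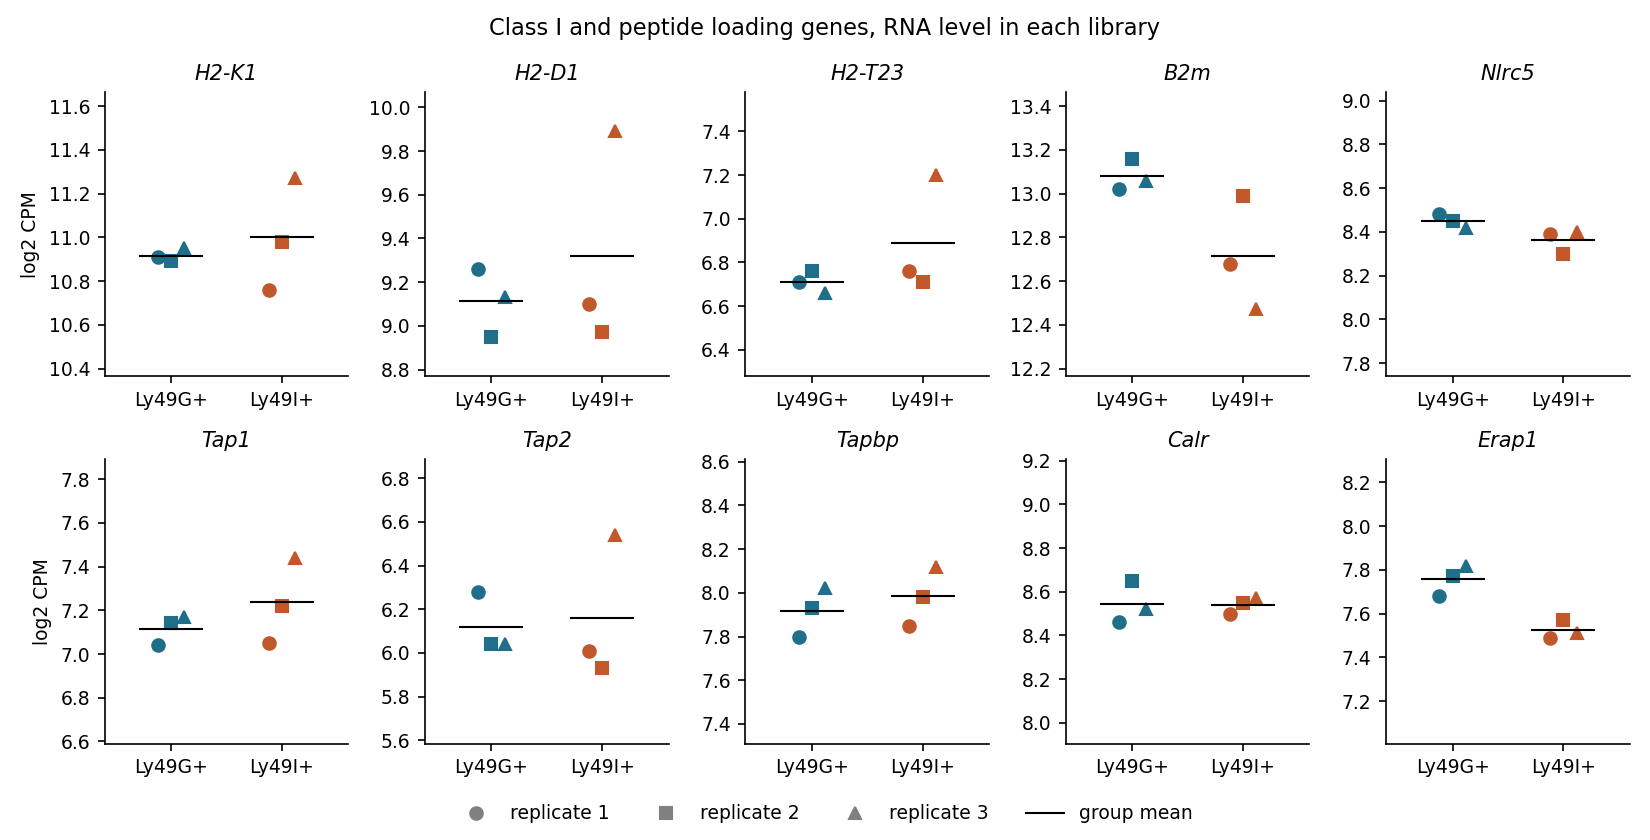
RNA level of each class I and peptide loading gene as log2 CPM, with 3 Ly49G+ libraries on the left and 3 Ly49I+ libraries on the right of each panel, symbols for the replicates and lines for the group means, on axes that start at a different level in each panel. B2m, Erap1 and Nlrc5 do not overlap between the groups, and Ly49I+ replicate 3 is the highest library for the 3 heavy chains, Tap1, Tap2 and Tapbp and the lowest for B2m.

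H2-K1 encodes the heavy chain that Ly49C and Ly49I read in this strain (gene 14972, chromosome 17, 33996012 to 34000619 in GRCm38.p6). It had 1929, 1892 and 1982 CPM in Ly49G+ replicates 1, 2 and 3, against 1736, 2015 and 2473 CPM in Ly49I+ replicates 1, 2 and 3. The groups overlapped, with the lowest and the highest library both in Ly49I+. The log2 difference was -0.09 ± 0.12 (SE, 3 libraries per group, limma adjusted p = 0.702, 95% interval -0.34 to 0.17). The size of the difference was below the SD of log2 CPM in Ly49I+ libraries, 0.257, and above that in Ly49G+ libraries, 0.034 (n = 3 each). The interval allows between 0.789 and 1.13 times the Ly49I+ level in Ly49G+ cells. The sign of the difference was positive, at 0.05, without Ly49I+ replicate 3.

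H2-D1, the second classical heavy chain gene of C57BL/6 mice (gene 14964, chromosome 17, 35263094 to 35267497), had the widest spread among the members. It had 613, 493 and 560 CPM in Ly49G+ replicates 1, 2 and 3, against 551, 502 and 949 CPM in Ly49I+ replicates 1, 2 and 3. Ly49I+ replicate 3 was far above the other libraries, and the other 2 Ly49I+ values lay within the Ly49G+ range. The SD of log2 CPM was 0.16 in Ly49G+ and 0.50 in Ly49I+ (n = 3 each). The log2 difference was -0.21 ± 0.20 (SE, limma adjusted p = 0.57), and 0.07 without Ly49I+ replicate 3 (adjusted p = 0.767).

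H2-D1 RNA also supplies the peptide that Qa-1 presents. The peptide known as Qdm is cut from the leader of H2-D, and the leader of H2-K does not carry it. The codons of both leaders are shown because they tie H2-D1 to H2-T23 and to NKG2A. They are the first 24 codons of H2-D1 and the first 21 of H2-K1, from GENCODE transcripts of GRCm38, with capitals for codons 3 to 11 of H2-D1, the Qdm codons, and for codons 3 to 8 of H2-K1, which line up with codons 6 to 11 of H2-D1.
H2-D1, chr17:35263114-35263185, plus strand: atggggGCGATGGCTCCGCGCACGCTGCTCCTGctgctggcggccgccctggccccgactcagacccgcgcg
H2-K1, chr17:34000195-34000257, minus strand: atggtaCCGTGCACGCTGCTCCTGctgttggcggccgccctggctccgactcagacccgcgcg
The H2-K1 leader has 3 codons fewer. Lined up from codon 6 of H2-D1, the leaders differ at 3 of 57 bases, and at 1 of the 18 bases in capitals.

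H2-T23, which encodes the Qa-1 heavy chain (gene 15040, chromosome 17, 36029977 to 36032701), was measured at 105, 109 and 101 CPM in Ly49G+ replicates 1, 2 and 3, against 108, 105 and 147 CPM in Ly49I+ replicates 1, 2 and 3. Again Ly49I+ replicate 3 was high and the other 5 libraries were close together. The log2 difference was -0.18 ± 0.12 (SE, limma adjusted p = 0.409), and -0.03 without Ly49I+ replicate 3 (adjusted p = 0.91). Its receptor gene Klrc1, which encodes NKG2A, differed where the ligand did not pass the test. Klrc1 had 131, 150 and 149 CPM in Ly49G+ replicates 1, 2 and 3, against 211, 215 and 206 CPM in Ly49I+ replicates 1, 2 and 3 (log2 difference -0.56 ± 0.08, limma adjusted p = 0.00295). Klrd1, which encodes its partner CD94, had a log2 difference of 0.06 ± 0.08 (limma adjusted p = 0.731).

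Reads of class I heavy chains can be shared between near-identical genes, and no source used here tells how the authors' counting treated them. Of the 100-base windows of the transcript, 0% of H2-K1, 4.64% of H2-D1 and 7.28% of H2-T23 are also found in a transcript of another gene, most often H2-Q1 for H2-D1 and Gm7030 for H2-T23. The levels of H2-D1 and H2-T23 are uncertain for this reason, and the shares of windows do not tell by how much. Among the other members the share was 0.107% for Tapbp and 0% for B2m, Tap1, Tap2, Erap1, Nlrc5 and Calr.

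B2m, which encodes beta-2 microglobulin, the light chain that every class I molecule needs (gene 12010, chromosome 2, 122147687 to 122153082), had the largest difference of the 10. It had 8292, 9126 and 8564 CPM in Ly49G+ replicates 1, 2 and 3, against 6549, 8115 and 5669 CPM in Ly49I+ replicates 1, 2 and 3. All Ly49G+ libraries were above all Ly49I+ libraries, with Ly49I+ replicate 2 just under the lowest Ly49G+ value and Ly49I+ replicate 3 the lowest of all. B2m took 0.829%, 0.913% and 0.856% of reads in the Ly49G+ replicates and 0.655%, 0.811% and 0.567% in the Ly49I+ replicates. The log2 difference was 0.37 ± 0.13 (SE, 95% interval 0.09 to 0.65), or 1.29-fold, with a limma adjusted p of 0.148, and 0.0202 with the replicate block.

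The B2m difference moved with single libraries. Without Ly49I+ replicate 2 it was 0.51 (limma adjusted p = 0.0467), and without Ly49I+ replicate 3 it was 0.25 (adjusted p = 0.32). Over the alternatives the adjusted p ran from 0.0202 to 0.439. Ly49I+ replicate 2 was also the library richest in transcripts of monocytes: 11 of 12 listed markers were measured, and their summed level was 23.9, 37.5 and 61.1 CPM in Ly49G+ replicates 1, 2 and 3, against 356, 1231 and 271 CPM in Ly49I+ replicates 1, 2 and 3. Of these 11 markers 10 were higher in Ly49I+ by the test, where 1.77% of all genes were. The receptor gene Csf1r had 1.53, 4.47 and 5.94 CPM in the Ly49G+ replicates and 41.3, 138 and 31.7 CPM in the Ly49I+ replicates. Markers of T cells, 7 of 10 measured, summed to between 364 and 433 CPM in Ly49G+ and between 246 and 264 CPM in Ly49I+ libraries. Of the 7, 5 were higher in Ly49G+ by the test, where 1.82% of all genes were. The highest of the 7 in every library were Trbc1, at 109 to 134 CPM, and Cd28, at 79.0 to 142 CPM. Cd3e, a subunit of the T cell receptor complex, had 9.27, 18.5 and 11.5 CPM in the Ly49G+ replicates and 0.592, 1.06 and 1.22 CPM in the Ly49I+ replicates. The part of these cells in the B2m levels was not tested.

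Per kb of transcript, H2-K1, H2-D1 and H2-T23 together had 0.161, 0.139 and 0.157 times the B2m level in Ly49G+ replicates 1, 2 and 3, against 0.185, 0.165 and 0.315 times in Ly49I+ replicates 1, 2 and 3. The ratio was thus lower in every Ly49G+ library, but only narrowly for Ly49I+ replicate 2, and Ly49I+ replicate 3 lay far from the rest. The ratio of H2-D1 alone to B2m overlapped. The heavy chain transcripts are richer in GC than that of B2m. With libraries centred within bins of GC content, B2m stood at 13.05 log2 CPM in Ly49G+ replicates 2 and 3 and Ly49I+ replicate 2. H2-K1 then stood at 11.06, 10.91 and 10.87, so Ly49I+ replicate 2 was no longer higher relative to B2m. H2-K1 had 4.09, 4.98 and 4.59 times the H2-D1 level per kb in the Ly49G+ replicates and 4.09, 5.21 and 3.38 times in the Ly49I+ replicates, so this ratio between the heavy chains overlapped.

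Erap1 encodes the aminopeptidase that trims peptides in the endoplasmic reticulum (gene 80898, chromosome 13, 74639573 to 74693205). It had 205, 219 and 227 CPM in Ly49G+ replicates 1, 2 and 3, against 180, 190 and 182 CPM in Ly49I+ replicates 1, 2 and 3. The groups did not overlap, and the Ly49I+ libraries lay close together. The log2 difference was 0.24 ± 0.07 (SE, 95% interval 0.08 to 0.39), or 1.18-fold, with a limma adjusted p of 0.103, and 0.0353 with the replicate block. It stayed between 0.20 and 0.28 when single libraries were left out, with adjusted p between 0.103 and 0.337, so no single library carried its size.

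Promoter sequence is shown for B2m and Erap1, the pair with the smallest p, and for H2-D1, the gene with the widest spread. RefSeq promoters of GRCm38.p6, from 250 bases before to 50 after the start, were at hand for 8 of the 10 members, not for Tap2 and Nlrc5. Each was searched on both strands for the core of the interferon-stimulated response element, which is TTTC, any 2 bases and TTTC again, and for the inverted CCAAT box, ATTGG, the motif of the NF-Y factor. The stretches below are 130 bases each, 5′ to 3′, with matches of either motif in capitals.
B2m, chr2:122147527-122147656, plus strand: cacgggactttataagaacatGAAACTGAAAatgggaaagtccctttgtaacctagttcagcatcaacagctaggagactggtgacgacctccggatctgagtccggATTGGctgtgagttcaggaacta
Erap1, chr13:74639743-74639872, plus strand: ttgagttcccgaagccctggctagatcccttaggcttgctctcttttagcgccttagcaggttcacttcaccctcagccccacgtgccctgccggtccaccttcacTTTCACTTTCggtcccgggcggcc
H2-D1, chr17:35262934-35263063, plus strand: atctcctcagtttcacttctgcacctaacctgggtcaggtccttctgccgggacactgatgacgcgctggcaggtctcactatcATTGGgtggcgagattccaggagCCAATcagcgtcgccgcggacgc
The response element core was found in 3 of the 8 promoters, those of B2m, Erap1 and H2-T23, and in 3.52% of all 27025 promoters searched. The CCAAT motif was found in 7 of the 8, all but Erap1, and in 37.8% of all promoters. The core begins at position -139 from the start in B2m, -124 in H2-T23 and -4 in Erap1. The start used for Erap1 is an internal one. Its window, 74639603 to 74639902, lies wholly after the first base of the gene, 74639573. The windows of H2-K1 likewise lie inside the span of its gene. The motif matches are exact matches of letters, so variants of either motif were not counted, and a promoter without a match may hold one. The H2-D1 stretch, for instance, holds tttcacttct, which resembles the response element core without matching it. No binding was measured.

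Nlrc5 encodes the activator that works at the promoters of class I, B2m and Tap1 genes (gene 434341, chromosome 8, 94434335 to 94527272). It had 357, 349 and 343 CPM in Ly49G+ replicates 1, 2 and 3, against 336, 315 and 339 CPM in Ly49I+ replicates 1, 2 and 3. Every Ly49G+ library was above every Ly49I+ library, but Ly49G+ replicate 3 and Ly49I+ replicate 3 nearly met. The log2 difference was 0.08 ± 0.07 (SE, limma adjusted p = 0.496). Its 95% interval in this fit, -0.06 to 0.23, reached a ratio of 1.17 at its upper end.

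The TAP transporter is made of the products of Tap1 (gene 21354, chromosome 17, 34187556 to 34197225) and Tap2 (gene 21355, chromosome 17, 34204479 to 34216321). Tap1 had 132, 141 and 144 CPM in Ly49G+ replicates 1, 2 and 3, against 132, 149 and 173 CPM in Ly49I+ replicates 1, 2 and 3. Tap2 had 77.8, 65.7 and 65.8 CPM in Ly49G+ replicates 1, 2 and 3, against 64.4, 60.9 and 92.8 CPM in Ly49I+ replicates 1, 2 and 3. Both genes overlapped between the groups and were highest in Ly49I+ replicate 3. The log2 differences were -0.12 ± 0.10 for Tap1 (limma adjusted p = 0.517) and -0.04 ± 0.15 for Tap2 (limma adjusted p = 0.906), and that of Tap2 was 0.15 without Ly49I+ replicate 3.

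Tapbp encodes tapasin, which bridges TAP and the empty heavy chain (gene 21356, chromosome 17, 33919478 to 33929290). It had 222, 243 and 260 CPM in Ly49G+ replicates 1, 2 and 3, against 231, 253 and 277 CPM in Ly49I+ replicates 1, 2 and 3, with a log2 difference of -0.07 ± 0.09 (SE, limma adjusted p = 0.685). Calr encodes calreticulin, the chaperone that holds the heavy chain in the loading complex (gene 12317, chromosome 8, 84842088 to 84846931). It had 352, 401 and 368 CPM in Ly49G+ replicates 1, 2 and 3, against 362, 374 and 381 CPM in Ly49I+ replicates 1, 2 and 3. The groups overlapped in both genes. For Tapbp the lowest library was Ly49G+ replicate 1 and the highest Ly49I+ replicate 3, while for Calr the Ly49I+ values lay within the Ly49G+ range. For Calr the log2 difference was 0.00 ± 0.07 (limma adjusted p = 0.987), with a 95% interval of -0.16 to 0.16.

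**Figure D2:**
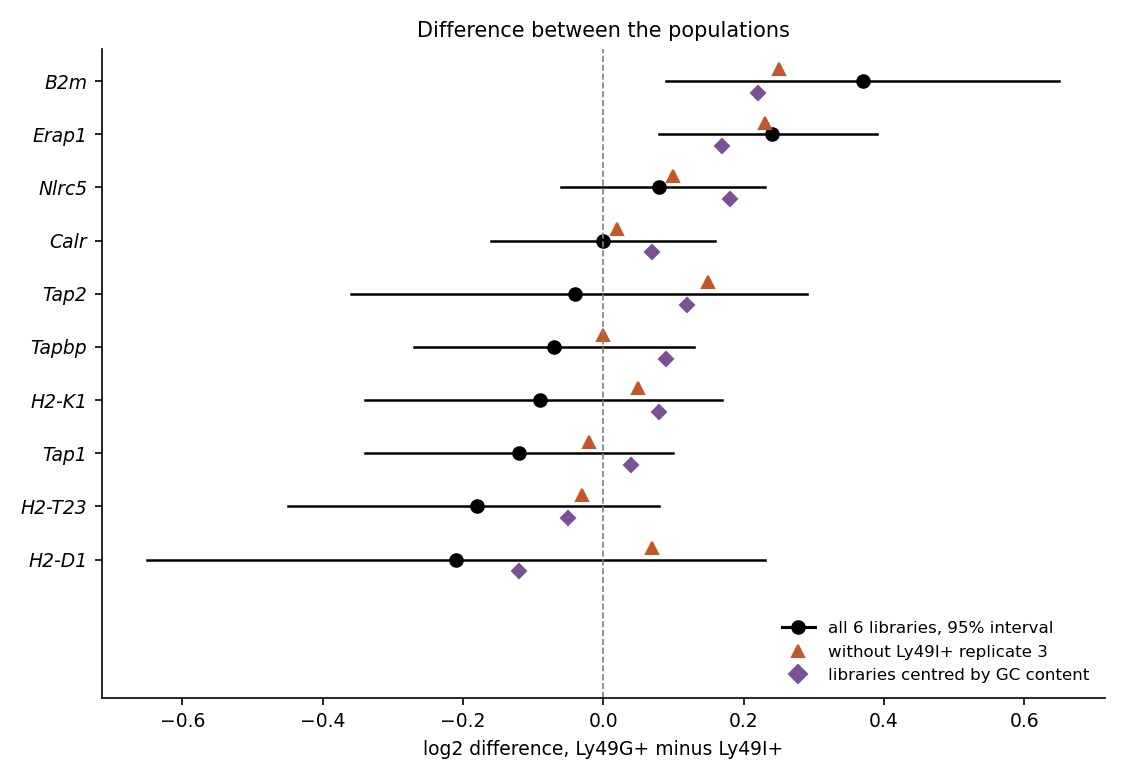
Log2 difference of Ly49G+ minus Ly49I+ for each gene: black points and lines give all 6 libraries with the 95% interval, triangles the value without Ly49I+ replicate 3 and diamonds the value after each library was centred within bins of transcript GC content. B2m at 0.37 and Erap1 at 0.24 have intervals above 0, while H2-D1 at -0.21 has the widest interval and lies at 0.07 without Ly49I+ replicate 3.

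Levels of different genes were compared per kb of transcript, as CPM per kb. B2m was highest, at 10070 ± 495 CPM per kb in Ly49G+ and 7881 ± 1440 CPM per kb in Ly49I+ cells (SD, n = 3 each), and ranked 2 among 8406 genes with a transcript length. H2-K1 followed at 1195 ± 27.9 and 1282 ± 230 CPM per kb, and H2-D1 at 264 ± 28.5 and 317 ± 117 CPM per kb, Ly49G+ given before Ly49I+. The order was then Calr, Tapbp, H2-T23, Tap1, Nlrc5, Erap1 and Tap2, the last at 20.3 ± 2.02 CPM per kb in Ly49G+ and 21.1 ± 5.09 CPM per kb in Ly49I+ cells. Each gene was above the next in all 6 libraries, except that Tapbp was above H2-T23 in 5 of 6 and Tap1 above Nlrc5 in 2 of 6, so those neighbours were not separated. The Qa-1 gene H2-T23 thus stood far below both classical heavy chains. Lengths are those of a single GENCODE transcript a gene, and another choice of transcript would change these levels.

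**Figure D3:**
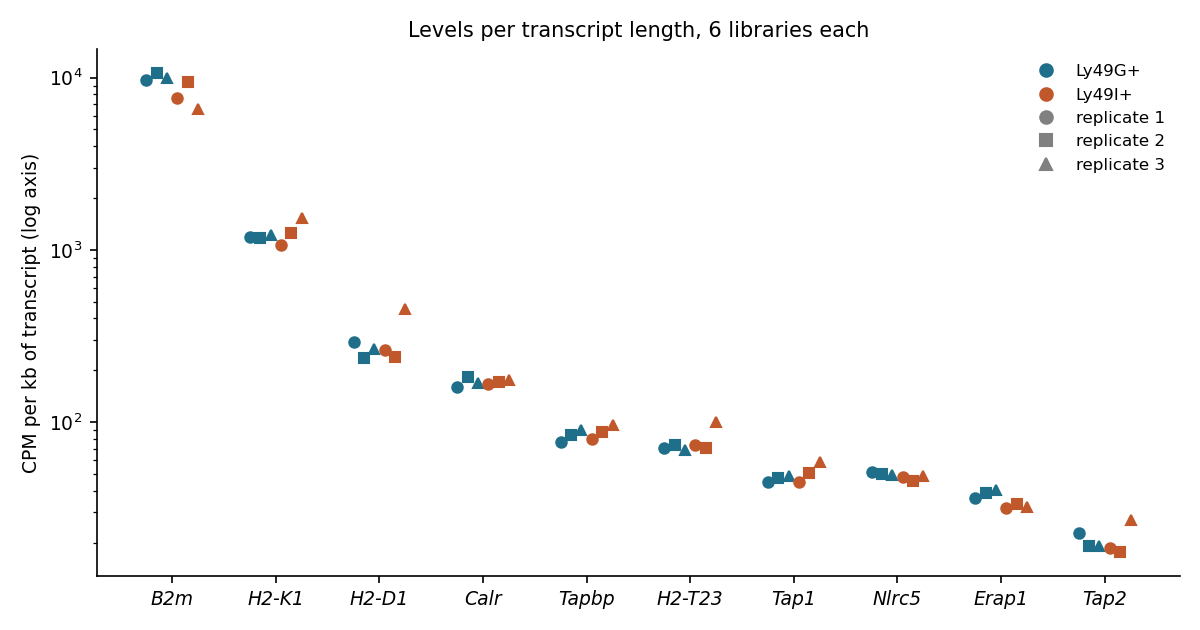
CPM per kb of transcript on a log axis for the 10 genes in falling order, with the 3 Ly49G+ libraries left of the 3 Ly49I+ libraries of each gene and symbols for the replicates. B2m ranks first near 10070 CPM per kb in Ly49G+ cells, H2-K1 and H2-D1 come next, and Tap1 and Nlrc5 share a level.

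Most members varied more among the Ly49I+ libraries, with Erap1 and Calr the exceptions. The median SD of log2 CPM over the 10 genes was 0.072 in Ly49G+ and 0.226 in Ly49I+, against 0.102 and 0.125 over all genes. Ly49I+ replicate 3 was the highest of the 6 libraries in 6 of the 10 genes, H2-K1, H2-D1, H2-T23, Tap1, Tap2 and Tapbp, where it was the highest in 27.8% of all genes. It was the lowest in 1 of the 10, B2m, and in 24.4% of all genes. Among the Ly49I+ libraries alone it was the highest in 8 of the 10, and in 37.1% of all genes. H2-D1 was 0.85 higher on the log2 scale in Ly49I+ replicate 3 than in the mean of the other 2 Ly49I+ libraries, a gap that 56 of 8520 genes exceeded. B2m was lower by contrast, at -0.36 on the same measure, and 219 genes lay below it.

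These genes differ in GC content, and so did the libraries in how they scored genes of different GC content. The transcripts of H2-K1, H2-D1, Tap1, Tap2 and Tapbp have between 55.9% and 57.3% GC and fall in the richest of 5 equal bins of genes, while B2m at 41.2% and Erap1 at 41.5% fall in the poorest. In Ly49I+ replicate 3 the median gene of the richest bin was 0.27 above its mean over the 6 libraries, and the median gene of the poorest bin stood at -0.16 relative to it. Ly49G+ replicates 1 and 2 and Ly49I+ replicate 1 ran the other way, with -0.10, -0.13 and -0.09 in the richest and 0.10, 0.08 and 0.05 in the poorest bin. Ly49I+ replicate 2 ran the same way as Ly49I+ replicate 3 but by less, at 0.04 and -0.07. Each deviation is from a mean that includes Ly49I+ replicate 3. A high value there lowers the deviations of the other libraries. In the richest bin 75.0% of genes were highest in Ly49I+ replicate 3, and in the poorest 1.25%. The median log2 difference of Ly49G+ minus Ly49I+ was -0.16 over the richest bin and 0.11 over the poorest.

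**Figure D4:**
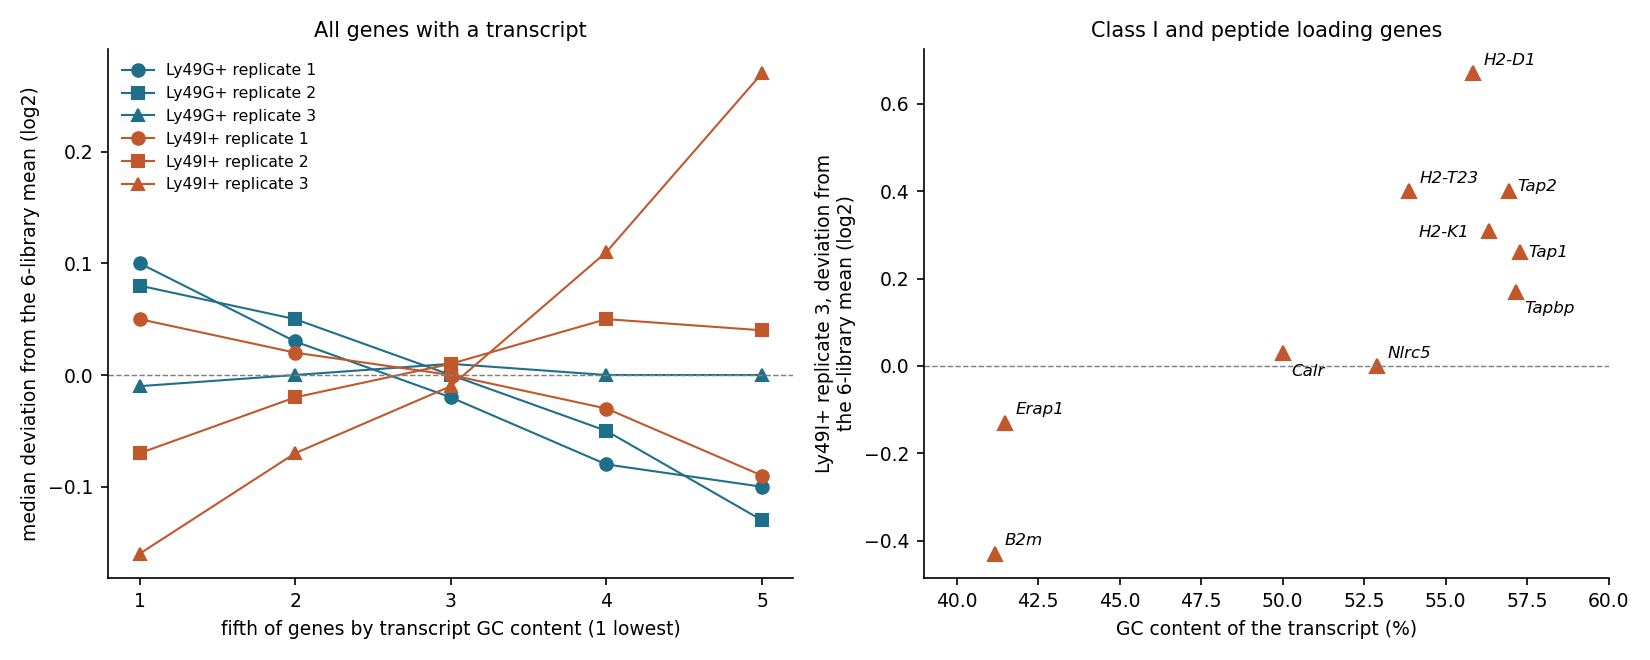
Left, median deviation of each library from the 6-library mean in 5 equal bins of all genes by transcript GC content, on the log2 scale, where Ly49I+ replicate 3 climbs to 0.27 in the richest bin. Right, deviation of Ly49I+ replicate 3 for each class I and peptide loading gene against its transcript GC content, with B2m and Erap1 below 0 at the GC-poor end and H2-D1 highest at 0.67.

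Centring each library within 20 bins of GC content, an alternative chosen after seeing the data, changed several differences. The log2 difference of B2m was then 0.22 (limma adjusted p = 0.281, and 0.122 with the replicate block), and that of Erap1 was 0.17 (adjusted p = 0.257, and 0.0916 with the block). Both genes then overlapped between the groups. B2m stood at 13.05 log2 CPM in Ly49I+ replicate 2 against 12.91 in Ly49G+ replicate 1. Erap1 stood at 7.64 in Ly49I+ replicate 3 against 7.61 in Ly49G+ replicate 1. The groups of Nlrc5 still did not overlap. H2-K1, Tap1, Tap2 and Tapbp turned positive, at 0.08, 0.04, 0.12 and 0.09. H2-D1 and H2-T23 were closer to 0, at -0.12 and -0.05. Nlrc5 was further from 0, at 0.18 (adjusted p = 0.106, and 0.0618 with the block), as was Calr, at 0.07. Of the 10 genes 0 passed with this centring, with or without the block, where 9.49% and 6.47% of all genes passed with and without it. The gap of H2-D1 between Ly49I+ replicate 3 and the other Ly49I+ libraries was 0.64 after centring, against 0.85 before it, and that of Tap1 was 0.05, against 0.30 before it.

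The other genes of the pathway gave the same count. Of 67 listed genes of heavy chains, peptide supply, folding and transcriptional control 52 were measured, and 0 passed in either direction (limma, adjusted p of 0.05). At an unadjusted p of 0.05 there were 8 of the 52, all higher in Ly49G+, where 19.8% of all genes passed in either direction and 9.59% toward Ly49G+. The median log2 difference was 0.03. With the replicate block 2 of the 52 passed, where 11.7% of all genes did, both higher in Ly49G+: Psme1, which encodes a subunit of the proteasome activator PA28 (0.26, adjusted p = 0.0239), and Lap3, which encodes a leucine aminopeptidase of the cytosol (0.47, adjusted p = 0.0254).

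Among 9 measured heavy chains and class I-like genes, differences ran from -0.19 for H2-T24 to 0.20 for Mr1, which encodes the molecule that presents metabolites to MAIT cells. H2-Q6 and H2-Q7, which share 19.3% and 16.4% of their transcript windows with other genes, had their highest level in Ly49I+ replicate 3, as H2-D1 did. H2-Q6 had 118, 111 and 118 CPM in Ly49G+ replicates 1, 2 and 3, against 95.4, 90.2 and 161 CPM in Ly49I+ replicates 1, 2 and 3. Among 12 measured genes of peptide supply, differences ran from -0.18 for Psmb10 to 0.47 for Lap3. Lap3 had 20.3, 21.5 and 19.7 CPM in Ly49G+ replicates 1, 2 and 3, against 13.6, 16.3 and 14.7 CPM in Ly49I+ replicates 1, 2 and 3, so its groups did not overlap (0.47 ± 0.12, SE, limma adjusted p = 0.0622). The immunoproteasome genes Psmb8, Psmb9 and Psmb10, whose products make peptides suited to class I, had log2 differences of -0.02, 0.02 and -0.18, none past the test.

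In the endoplasmic reticulum, 15 of 15 chaperone and quality control genes were measured, with differences from -0.25 for Syvn1 to 0.21 for Pdia3, which encodes the thiol oxidoreductase ERp57 of the loading complex. Pdia3 had a limma adjusted p of 0.213, and calnexin gene Canx differed by 0.10 ± 0.07 (adjusted p = 0.477). Among 16 measured genes of transcriptional control, differences ran from -0.21 for Irf8 to 0.22 for Ezh2. Rfx5 and Rfxank, whose products sit with NLRC5 on class I promoters, differed by 0.16 ± 0.11 and -0.17 ± 0.12 (limma adjusted p = 0.414 and 0.43). Irf1, which relays interferon to class I genes, differed by -0.13 ± 0.08 (limma adjusted p = 0.4).

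Of 16 listed interferon response genes, which often move with class I, 11 were measured and 0 passed, with 2 at an unadjusted p under 0.05, where 19.8% of all genes were. Ifit1, which encodes an RNA-binding protein induced by interferon, was just outside (0.52 ± 0.13, limma adjusted p = 0.0548). It was the 1 gene of the list that passed with the replicate block (adjusted p = 0.026), and it also passed with GC centring. Their summed level was 800, 859 and 817 CPM in Ly49G+ replicates 1, 2 and 3, against 791, 802 and 806 CPM in Ly49I+ replicates 1, 2 and 3. Markers of cells that bear class II were few, with 2 of 5 measured, H2-Ab1 and Cd74, at a summed 16.1, 22.4 and 52.9 CPM in Ly49G+ replicates 1, 2 and 3 and 25.1, 96.6 and 39.9 CPM in Ly49I+ replicates 1, 2 and 3. Of 7 B cell markers 2 were measured, Igkc and Ighm, at a summed 267 to 371 CPM in Ly49G+ and 172 to 394 CPM in Ly49I+ libraries. None of 5 erythroid markers was in the table, and genes outside it were not analysed here. Ly49I+ replicate 2, where class II and monocyte markers were highest, was also the Ly49I+ library with the most B2m RNA, and the part of such cells in that level was not tested.

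Of 16 listed genes for receptors that read class I 14 were measured, and 5 were higher in Ly49G+, 2 higher in Ly49I+ and 7 did not pass, where 3.59% of all genes passed. With the replicate block 9 were higher in Ly49G+ and 2 in Ly49I+, where 11.7% of all genes passed. The calls without the block include the sorted receptors Klra7 and Klra9. The other called genes were Klra1, Klra4, Klra6 and Cd160, higher in Ly49G+, and Klrc1. Klra3, which encodes Ly49C, the other receptor known to bind H2-K in this strain, differed by 0.30 ± 0.08 (limma adjusted p = 0.0604, and 0.0109 with the replicate block), although the Ly49G+ cells were sorted as Ly49C/I-negative. With GC centring the Klra3 difference was 0.17, and it passed neither without the block (limma adjusted p = 0.188) nor with it (0.0994). Klra genes resemble each other in sequence, and their counts may be split between them. The count of receptors is tied to the sort and is given as a description only.

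Among the genes outside all lists whose pattern over the 6 libraries was most like the mean of the 10 members were Prelid1, Grap, Eif4g1 and Ddx54, with Pearson correlations of 0.992, 0.983, 0.981 and 0.978. Of 8403 genes compared 146 had a correlation above 0.9 with that mean. The mean of the members' centred log2 CPM was -0.01, 0.00 and 0.01 in Ly49G+ replicates 1, 2 and 3, against -0.11, -0.05 and 0.17 in Ly49I+ replicates 1, 2 and 3, so its highest value was that of Ly49I+ replicate 3. These 4 genes have between 54.4% and 59.0% GC. Among the members H2-K1 followed the mean most closely, with a correlation of 0.933, and B2m ran against it at -0.418. All values share these 6 libraries, and the correlations are descriptions.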

How the data were processed

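RNA-seq of sorted spleen NK cells was used, with 3 Ly49G+ and 3 Ly49I+ libraries. Per the labels' protocols, 0.4 µg of total RNA went into each stranded library, read as pairs of 100 bases. The tools named are STAR 2.3.0, CASAVA 1.8.2 and limma, with the build mm10, per the submitters' processing notes. Which counter, annotation and low-count filter the authors used is not given in these sources. The authors deposited log2 CPM for 8520 genes by NCBI number. The values follow limma's voom, with 0.5 added to each count, and undoing that formula returned whole reads, within 0.001 read, for 100% of values. Every gene reached 10.0 CPM in at least 2 libraries, so low genes are missing and no statement is made about them; all members passed. Names came from RefSeq GRCm38.p6 for 8429 genes and GENCODE for 1, and 90 stayed unnamed. No replicate pair agreed within sampling noise.

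The test was that of limma 3.58.1 (R 4.3.3), two-sided, from a linear model of the deposited log2 values with an intensity trend. Differences are Ly49G+ minus Ly49I+, and p-values were adjusted by Benjamini-Hochberg across the 8520 genes, with a threshold of 0.05. The steps were tested on simulated data. Alternatives were the replicate block, leaving out each library, no trend, a robust prior, libraries centred on their median, voom weights, a minimum mean of 5 log2 CPM and, added after seeing the data, centring by GC content, alone and with the block. GC content and length came from a single GENCODE transcript a gene, for 98.7% of genes and all 10 members. Deviations of same-numbered libraries correlated at 0.371, 0.114 and 0.156 over genes for replicates 1, 2 and 3, all over 0.1. The numbers come from the labels and were used only as the block of an alternative, so the main test did not pair the libraries. Libraries of different numbers correlated as highly in places, at 0.359 for Ly49G+ replicate 3 with Ly49I+ replicate 2 and 0.115 for Ly49G+ replicate 2 with Ly49I+ replicate 1. The correlations therefore cannot tell whether the numbers pair the samples. The members and lists were chosen with earlier results of these data known. Named genes are all members, pathway genes with an adjusted p under 0.1 or called in an alternative, the ends of each list's range, receptors tied to class I, a few pathway and marker genes of known role and the 5 genes most like the members' mean; the range ends and genes of known role were named after values were seen. A few genes that this rule names are not reported here. Python 3.11.15, numpy 2.4.6, pandas 2.3.3 and matplotlib 3.10.9 were used.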

Additional observations from a re-analysis of the deposited data

How the results depend on the processing

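The differences of the 10 members were recomputed under 14 alternatives. Of these 140 values 122 kept their direction and their side of the threshold, 3 passed it and 15 changed sign. The members called were 2 with the replicate block, 1 without Ly49I+ replicate 2 and between 0 and 1 when single libraries were left out. Without Ly49I+ replicate 3 the changed signs were 0.05 for H2-K1, 0.07 for H2-D1 and 0.15 for Tap2. With libraries centred within bins of GC content, with and without the block, they were 0.08 for H2-K1, 0.04 for Tap1, 0.12 for Tap2 and 0.09 for Tapbp. When single libraries were left out, H2-K1 ran from -0.21 to 0.05, H2-D1 from -0.39 to 0.07 and Tap2 from -0.15 to 0.15. Tap2 was 0.00 without Ly49G+ replicate 2 or 3, and Calr was -0.05 without Ly49G+ replicate 2 and -0.02 without Ly49I+ replicate 1. The other pathway genes called were 2 with the block, 1, Lap3, without the intensity trend or with libraries centred on their median, 4 with GC centring (H2-Q4, Psme1, Lap3 and Nfkb1) and 6 with GC centring and the block, which added Pdia3 and Tapbpl; leaving out single libraries gave 0. Over all genes 306 were called, 993 with the block, 178 with a minimum mean of 5 log2 CPM, 544 with GC centring, 798 with GC centring and the block, and between 94 and 644 when single libraries were left out. The block changed no other call among the members. The cause of these changes was not tested, beyond the smaller number of libraries or genes that some alternatives use.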
